A study of Mus musculus with 2 samples.

Results

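The genes described here are 10 mouse genes of the epidermal growth factor receptor (EGFR) and hepatocyte growth factor (HGF) systems, chosen by name from the gene symbols. They are the EGFR ligand genes Areg, Ereg, Hbegf, Tgfa, Btc and Egf, the receptor genes Egfr and Erbb3, and Hgf with its receptor gene Met. All 10 were found among the 47442 features of the deposited tables, and 8 of them reached 1 FPKM (sequenced fragments relative to gene length and library size) in at least 1 library. Ereg and Egf stayed under that filter in both libraries. Areg and Hbegf passed it through the GBP5 library alone, so a higher value there was a condition of their being counted.

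The series compared livers of C57BL/6 mice that were 8 to 9 weeks old and had received an adenovirus by tail vein 10 days earlier. In the GBP5 group the virus carried GBP5, a guanylate-binding protein and interferon-induced GTPase, and in the β-Gal group it carried β-galactosidase, a bacterial enzyme that serves as a control cargo. Mice of both groups thus received an adenovirus, and livers without virus are not part of this comparison. Each group is 1 RNA sequencing library of whole liver, and the labels state neither the promoter in the virus, nor the species of the GBP5 cargo, nor how many animals a library stands for. With 1 library a group there is no replicate check and no p-value, and "higher" and "lower" say how GBP5 stood against β-Gal.

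EGFR ligands are made as membrane-anchored precursors, and metalloproteases, above all ADAM17, release them. They bind EGFR, a receptor tyrosine kinase that is abundant on hepatocytes, and EGFR can pair with ERBB3, whose own kinase is weak and whose ligands are the neuregulins. HGF is secreted by non-parenchymal liver cells as an inactive single chain, is cleaved by serine proteases and then activates MET on hepatocytes. EGFR and MET are the principal direct mitogenic receptors of hepatocytes, and in mice the loss of both signals blocks liver regeneration.

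The libraries corresponded to about 17206000 assigned reads for GBP5 and 18405000 for β-Gal, as the steps of the FPKM values show. Mouse Gbp5 was at 19.1 FPKM in the GBP5 library and 4.24 FPKM in the β-Gal library, and whether these are delivered or endogenous transcripts cannot be told apart. The typical gene was higher with GBP5. The log2 ratio, on the scale of log2(FPKM + 1), had a median of 0.48 over the 13599 features that reached 1 FPKM. For 11828 genes at 1 FPKM or more in each library, FPKM ratios had a median of 1.45, and values "after rescaling" are divided by it. Hepatocyte markers summed to 52939 FPKM in the GBP5 library and 90145 FPKM in the β-Gal library, and pancreatic acinar markers to 0.515 FPKM and 829.6 FPKM, with 4 of the 7 acinar markers listed at 0 in the GBP5 library.

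The ligand genes Tgfa and Btc were higher with GBP5 and the receptor gene Egfr was lower. Egfr was 6.89-fold lower, Tgfa was 3.46-fold higher and Btc 4.55-fold higher. All 6 ligand genes had a numerically higher value in the GBP5 library. Of these, Ereg and Egf are not among the 13599 features, and the filter fixed the direction of Areg and Hbegf. Of the 13599 features, 77.5% were numerically higher. Hgf was 2.18-fold higher, and the ratio of Met was 0.945. A log2 ratio of at least 1 with a pseudocount of 1 FPKM was reached by Tgfa and Btc. These are 2 of the 8 genes that passed the filter, against 19.2% of all 13599 features. A log2 ratio of -1 or less was reached by Egfr alone, 1 of the 8, against 5.56% of all features. After rescaling, 6 of the genes passed the filter. The same size rule then took Tgfa and Btc as higher and Egfr and Erbb3 as lower, against 7.32% higher and 9.75% lower among 13092 features.

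**Figure D1:**
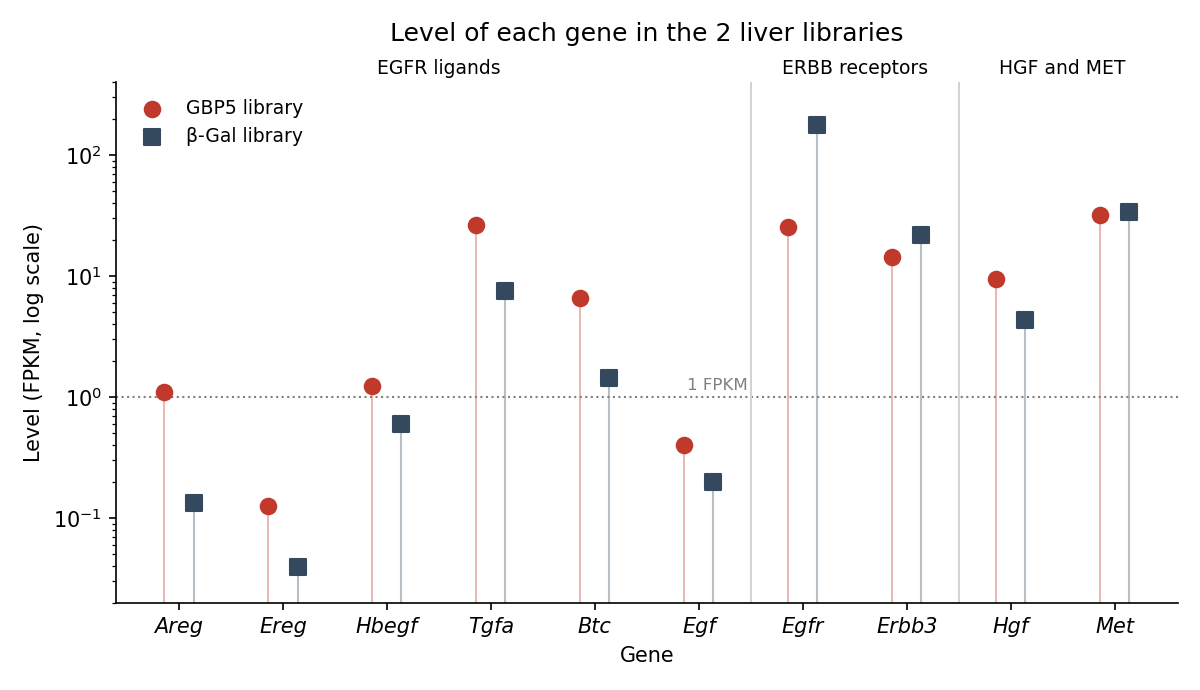
Level of each gene in FPKM (log axis) in the GBP5 library (red circles) and the β-Gal library (dark squares), 1 library each, with the 1 FPKM filter as a dotted line. Tgfa stood at 26.2 FPKM with GBP5 and 7.57 FPKM with β-Gal, whereas Egfr stood at 25.5 FPKM with GBP5 and 176 FPKM with β-Gal.

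Tgfa (ENSMUSG00000029999, chromosome 6, 86195223 to 86275719, plus strand, GRCm38) encodes transforming growth factor alpha, a ligand that hepatocytes can make for their own EGFR. It was at 26.2 FPKM in the GBP5 library and 7.57 FPKM in the β-Gal library, from 889 and 275 reads. This was a 3.46-fold difference with a 95% interval of 3.02 to 3.97, which covers counting error only. Its log2 ratio of 1.66 placed Tgfa at rank 650 from the top of 13599 features, and after rescaling it remained 2.39-fold higher. Tgfa was the most abundant of the 6 ligand transcripts in both libraries, with 73.5% of their summed FPKM in the GBP5 library and 75.8% in the β-Gal library.

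Btc (ENSMUSG00000082361, chromosome 5, 91357261 to 91402994, minus strand) encodes betacellulin, a ligand of EGFR and ERBB4 first known from pancreatic beta cell tumours. It was at 6.57 FPKM in the GBP5 library and 1.44 FPKM in the β-Gal library, from 234 and 55 reads, a 4.55-fold difference (interval 3.38 to 6.22). After rescaling it was 3.14-fold higher. Btc was higher in the library where the acinar markers were lower, and the part of pancreatic cells in its level was not tested. Among the ligands, Btc came second to Tgfa in both libraries.

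Areg (ENSMUSG00000029378, chromosome 5, 91139599 to 91148432, plus strand) encodes amphiregulin, an EGFR ligand made by injured epithelia and by several immune cell types. It was at 1.10 FPKM in the GBP5 library and 0.134 FPKM in the β-Gal library, from 23 and 3 reads. The ratio of 8.20 had a wide interval, 2.48 to 42.7. On the log2(FPKM + 1) scale the difference was 0.89, short of the size rule, because that scale understates the change of low genes.

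Hbegf, heparin-binding EGF-like growth factor (ENSMUSG00000024486, chromosome 18, 36504927 to 36515805, minus strand), was at 1.22 FPKM in the GBP5 library and 0.595 FPKM in the β-Gal library. Its ratio of 2.06 has no interval, since its FPKM did not give whole reads with the isoform lengths of GENCODE M21. Its log2 ratio was 0.48, and the median of all features was also 0.48 to 2 decimals. Egf, the prototype ligand (ENSMUSG00000028017, chromosome 3, 129677565 to 129755316, minus strand), was at 0.400 FPKM in the GBP5 library and 0.198 FPKM in the β-Gal library, from 17 and 9 reads. Ereg, epiregulin (ENSMUSG00000029377, chromosome 5, 91074622 to 91093646, plus strand), had 9 reads in the GBP5 library and 3 in the β-Gal library, or 0.127 and 0.0395 FPKM. The ratios of Egf, 2.02 (interval 0.852 to 5.14), and Ereg, 3.21 (interval 0.801 to 18.4), both had intervals that span 1, and at this depth a difference could not be detected. Summed over the 6 ligand genes, the level was 35.6 FPKM in the GBP5 library and 9.98 FPKM in the β-Gal library, and without Tgfa it was 9.42 and 2.41 FPKM.

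Egfr (ENSMUSG00000020122, chromosome 11, 16752203 to 16918158, plus strand) had the largest absolute log2 ratio of the 10 genes on the log2(FPKM + 1) scale, whereas the plain FPKM ratio was farther from 1 for Areg. It was at 25.5 FPKM in the GBP5 library and 176 FPKM in the β-Gal library, from 1297 and 9561 reads. The level was 6.89-fold lower with GBP5 (interval 6.50 to 7.31), a log2 ratio of -2.74, which is rank 97 from the bottom of 13599 features. In the order of all features by FPKM, Egfr stood at place 4315 in the GBP5 library and at place 611 in the β-Gal library. Its log2 ratio was lower than that of each of 8 hepatocyte markers, whose log2 ratios had a median of -0.65 and of which Tat, at -1.55, was the lowest; in whole liver, fewer hepatocytes and less of a transcript per hepatocyte cannot be told apart. Egfros, an antisense gene within the Egfr locus, was listed at 0 FPKM in the GBP5 library and 0.0267 FPKM in the β-Gal library.

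Erbb3 (ENSMUSG00000018166, chromosome 10, 128567523 to 128589652, minus strand) was at 14.3 FPKM in the GBP5 library and 22.0 FPKM in the β-Gal library, from 1482 and 2435 reads. It was 1.54-fold lower (interval 1.44 to 1.64), and its log2 ratio of -0.59 became -1.08 after rescaling, past the size rule. The 8 hepatocyte markers had log2 ratios from -1.55 (Tat) to -0.13 (Hnf4a), and their part in the level of Erbb3 was not tested. The remaining ERBB receptor genes were low: Erbb2, the ligandless partner receptor, had 30 reads in the GBP5 library and 33 in the β-Gal library, and Erbb4, a neuregulin receptor, had 34 and 65 reads. Erbb2 and Erbb4 were named after their values were seen.

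**Figure D2:**
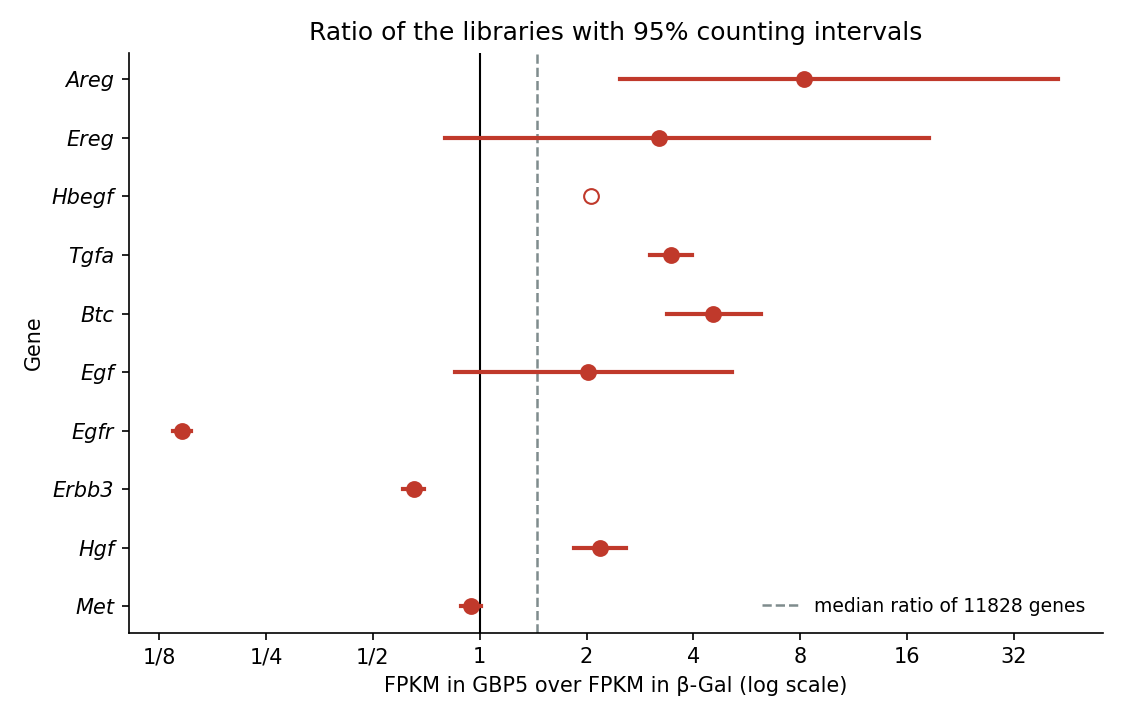
FPKM in the GBP5 library over FPKM in the β-Gal library (log axis) for each gene, with exact 95% counting intervals as bars and the median ratio of 11828 genes, 1.45, as a dashed line. Egfr (0.145) and Erbb3 (0.651) lie left of 1, Tgfa (3.46) and Btc (4.55) lie right of the dashed line with their whole intervals, and Hbegf (open circle) has no interval.

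The starts of the genes that differed most were compared by their upstream sequence. The 250 bases before the RefSeq start (GRCm38.p6) are given for Egfr, the gene that was lower, and for Tgfa, Btc and Areg, the ligands with the largest ratios, 5′ to 3′ on the strand of the gene, and RefSeq promoters were found for 7 of the 10 genes. Capitals mark matches on either strand to the GC box GGGCGG, the cyclic AMP response element (CRE) TGACGTCA, the AP-1 element TGANTCA and the TATA box TATAAA. None of the marked matches overlapped another.
Egfr, chr11:16751953-16752202, plus strand: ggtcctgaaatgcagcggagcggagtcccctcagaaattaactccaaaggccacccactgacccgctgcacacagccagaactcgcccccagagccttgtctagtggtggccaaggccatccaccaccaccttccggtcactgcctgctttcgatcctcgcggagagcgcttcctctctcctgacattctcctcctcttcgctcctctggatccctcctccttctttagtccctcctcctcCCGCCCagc
Tgfa, chr6:86194972-86195221, plus strand: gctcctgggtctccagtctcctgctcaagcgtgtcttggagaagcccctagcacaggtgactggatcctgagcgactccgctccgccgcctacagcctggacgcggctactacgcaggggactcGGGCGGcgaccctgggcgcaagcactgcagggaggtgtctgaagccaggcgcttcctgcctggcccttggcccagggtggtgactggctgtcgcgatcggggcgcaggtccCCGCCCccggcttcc
Btc, chr5:91402995-91403244, minus strand: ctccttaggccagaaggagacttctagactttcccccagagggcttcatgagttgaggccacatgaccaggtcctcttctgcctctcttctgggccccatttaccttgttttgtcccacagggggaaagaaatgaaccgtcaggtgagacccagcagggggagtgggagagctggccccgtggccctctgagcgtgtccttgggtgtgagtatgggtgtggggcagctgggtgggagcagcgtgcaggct
Areg, chr5:91139349-91139598, plus strand: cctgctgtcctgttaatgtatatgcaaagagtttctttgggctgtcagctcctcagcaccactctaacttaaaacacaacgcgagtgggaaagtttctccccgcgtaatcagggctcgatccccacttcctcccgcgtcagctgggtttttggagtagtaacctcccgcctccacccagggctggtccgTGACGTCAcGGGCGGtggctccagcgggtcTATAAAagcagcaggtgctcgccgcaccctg

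The upstream sequence of Areg held 3 kinds of match in a short stretch. Its CRE began 61 bases before the start, its GC box 52 bases before and its TATA box 31 bases before. Of 32851 promoter windows of the same length in the table, 1.55% held that CRE, 32.7% the GC box, 6.75% the AP-1 element and 12.4% the TATA box. Egfr held 1 GC box, beginning 9 bases before the start, and Tgfa held 2, beginning 126 and 15 bases before. The Btc window held none of the 4 motifs, which says only that these letters are not in that window. The windows of Tgfa (69.2%), Egfr (60.8%), Btc (59.6%) and Areg (57.2%) all had more G and C than the median window, 52.4%. Met, at 74.0%, held 3 GC boxes and 1 AP-1 element, whereas the windows of Hgf and Egf held no match at either of their 2 starts. A match is a description of the letters, and binding was not measured.

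Hgf (ENSMUSG00000028864, chromosome 5, 16553495 to 16620152, plus strand) was at 9.40 FPKM in the GBP5 library and 4.30 FPKM in the β-Gal library, from 433 and 212 reads. It was 2.18-fold higher (interval 1.85 to 2.59) and 1.51-fold higher after rescaling. Its log2 ratio of 0.97 lay just under the size rule. In liver, Hgf is known from stellate and sinusoidal endothelial cells. The 9 stellate cell markers summed to 176 FPKM in the GBP5 library and 216 FPKM in the β-Gal library, with a median log2 ratio of -0.06 and 4 of 9 numerically higher. The 8 sinusoidal endothelial markers summed to 233 and 185 FPKM, with 7 of 8 numerically higher, against 77.5% of all features. Their median was 0.21, against 0.48 for all features. Lyve1 (1.27) and Dnase1l3 (1.06) passed the size rule, 2 of 8 against 19.2% of all features. After rescaling 0 of the 8 were higher and 1 was lower, against 7.32% and 9.75% of all features. The lower one was Clec4g, with a log2 ratio of -1.12. The part of those cells in the level of Hgf was not tested.

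Met (ENSMUSG00000009376, chromosome 6, 17463800 to 17573980, plus strand) was at 31.7 FPKM in the GBP5 library and 33.6 FPKM in the β-Gal library, from 1652 and 1870 reads. The ratio of 0.945 (interval 0.884 to 1.01) could not be told from 1 at this depth. After rescaling the ratio was 0.653, and Met lay at percentile 19.8 of all features by log2 ratio. The receptors therefore differed among themselves in these libraries: the intervals of Egfr (0.137 to 0.154), Erbb3 (0.610 to 0.695) and Met (0.884 to 1.01) did not overlap.

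**Figure D3:**
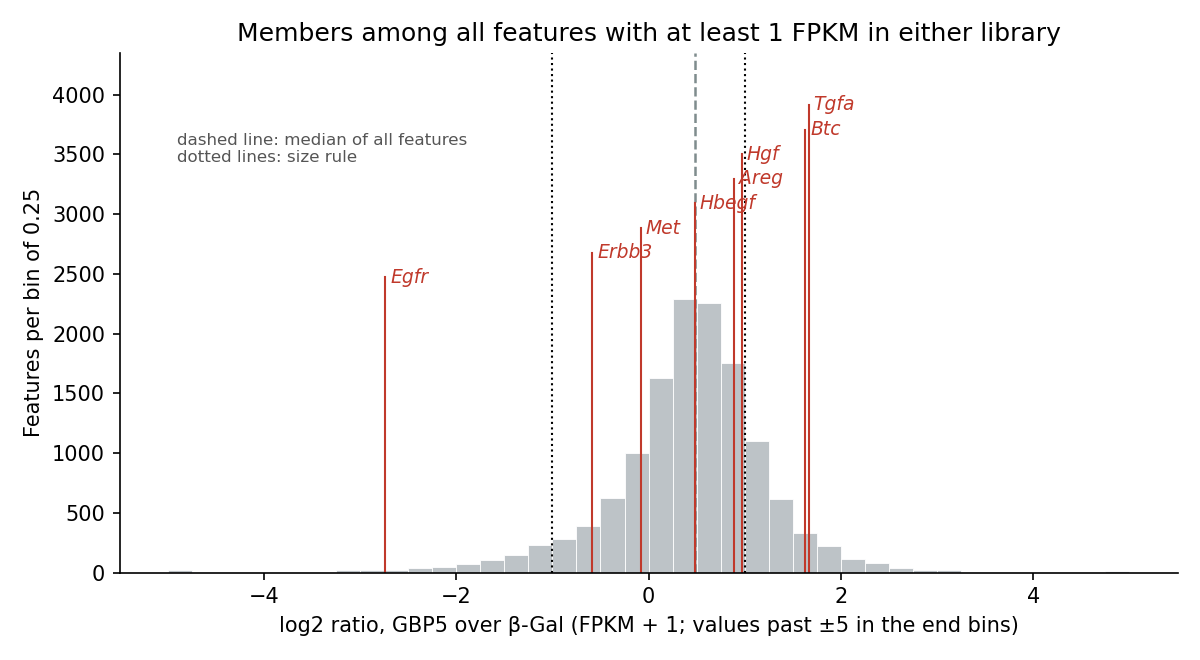
Number of features per bin of 0.25 in log2 ratio (grey bars, 13599 features), with the 8 genes that passed the filter as red lines, the median of 0.48 as a dashed line and the size rule at -1 and 1 as dotted lines. Egfr, at -2.74, lies in the sparse lower tail, and Tgfa (1.66) and Btc (1.63) lie above 1.

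The order of the levels differed between the libraries, and with 1 library a group there is no spread to set it against. With β-Gal, Egfr was first, followed by Met, Erbb3, Tgfa, Hgf and Btc. With GBP5, Met was first at 31.7 FPKM, followed by Tgfa at 26.2 FPKM, Egfr at 25.5 FPKM, Erbb3 at 14.3 FPKM, Hgf at 9.40 FPKM and Btc at 6.57 FPKM. The level of Egfr over that of Tgfa was 0.975 in the GBP5 library and 23.2 in the β-Gal library, and that of Met over Hgf was 3.37 and 7.80. Levels of different genes depend on the length used, since the authors' values rest on a mean over annotated isoforms, from 446 to 10208 bases for Egfr. With the length of the longest isoform, an alternative chosen after the data were seen, Egfr over Met was 0.524 in the GBP5 library and 3.41 in the β-Gal library. Egfr over Erbb3 was then 0.516 with GBP5 and 2.31 with β-Gal, against 1.78 and 7.99 in FPKM, so its place relative to Erbb3 in the GBP5 library turned with the length. Met over Erbb3 also turned, at 0.985 with GBP5 and 0.679 with β-Gal, against 2.22 and 1.53 in FPKM. The ratio of a gene between libraries does not depend on its length.

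The ligand genes Epgn, Ereg, Areg and Btc lie together on chromosome 5, within 376 kb from the start of Epgn to the far end of Btc. Epgn, which encodes epigen, a further EGFR ligand, had 0 reads in both libraries, and Ereg was near 0 in both. Along the cluster, the level in the GBP5 library was 0.127 FPKM for Ereg, 1.10 FPKM for Areg and 6.57 FPKM for Btc, and in the β-Gal library it was 0.0395, 0.134 and 1.44 FPKM. The long noncoding gene Gm19619, between Areg and Btc, was at 2.18 FPKM in the GBP5 library and 1.80 FPKM in the β-Gal library, a ratio of 1.21, which is below the median ratio of 1.45. The plain ratios were 3.21 for Ereg, 8.20 for Areg and 4.55 for Btc. Their intervals (0.801 to 18.4, 2.48 to 42.7 and 3.38 to 6.22) overlapped, and none was computed for Gm19619. Whether the ratios differed along the cluster was not tested. Across all 10 genes, 10 annotated features overlap a member's locus, and none of them exceeded 0.219 FPKM in either library.

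Further genes of the pathway are given by their roles. Of those named, Nrg1, Plat, Dusp5, Dusp4, Emp1 and Inhbb were under 1 FPKM in the β-Gal library and passed the filter through the GBP5 library alone, so a higher value was a condition of their being counted, as for Areg and Hbegf. The same holds for Adam12, Spint1, Spry1 and Fosl1, which count in the shares and medians of their lists. Of 10 genes for the release of membrane-bound ligands, 4 were higher by the size rule, against 19.2% of all features, and none lower. Their median log2 ratio was 0.89 against 0.48 for all features. All 10 were numerically higher, against 77.5% of all features, and for Adam12 the filter fixed this direction. Adam10, a sheddase of Btc and Egf precursors, was at 80.3 FPKM in the GBP5 library and 30.3 FPKM in the β-Gal library (2.65-fold, interval 2.48 to 2.83). Adam17, the main sheddase of Tgfa, Areg and Hbegf precursors, was at 27.0 and 12.2 FPKM. Rhbdf2, which encodes the iRhom2 cofactor of ADAM17 and is abundant in myeloid cells, was 2.67-fold higher (interval 2.33 to 3.07), and Adam8, a metalloprotease of leukocytes, 3.33-fold (interval 2.53 to 4.44). After rescaling none of the 9 still tested passed the size rule, against 7.32% higher and 9.75% lower among all features. Macrophage and Kupffer cell markers summed to 561 FPKM in the GBP5 library and 329 FPKM in the β-Gal library, of which Cd5l held 345 and 191 FPKM. Of these markers 6 of 8 were numerically higher, against 77.5% of all features. Of the 7 tested, Adgre1 (log2 ratio 1.17) and Cd68 (1.22) were higher by the size rule, against 19.2% of all features. The Kupffer cell markers Vsig4 (2.71 FPKM with GBP5 and 11.1 FPKM with β-Gal) and Clec4f (37.8 and 40.6 FPKM) were numerically lower, Vsig4 past the size rule. After rescaling none of the 7 was higher and Vsig4 was still lower, against 7.32% and 9.75% of all features. The part of these cells in the levels of the release genes was not tested.

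Among 10 genes for HGF activation, the size rule took 4 as higher and 2 as lower, against 19.2% and 5.56% of all features. The median log2 ratio was 0.27, against 0.48 for all features. Plat, the tissue plasminogen activator gene, was at 8.24 FPKM in the GBP5 library and 0.343 FPKM in the β-Gal library, and St14, the gene of the membrane protease matriptase, at 7.44 and 1.52 FPKM. Plau, the urokinase gene, and Plaur, its receptor gene, were 2.97-fold and 2.40-fold higher. The lower pair was made of hepatocyte genes: Hgfac, which encodes the HGF activator of plasma, was at 53.1 FPKM in the GBP5 library and 189 FPKM in the β-Gal library (3.55-fold lower, interval 3.32 to 3.80), and Plg, the plasminogen gene, was at 319 and 785 FPKM. After rescaling 2 of the 10 were higher and 4 lower, against 7.32% and 9.75% of all features.

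Of 24 genes for carriers of the receptor signal (adaptors, RAS, MAPK and related genes), 4 were higher, a share near the 19.2% of all features, and none lower. None passed in either direction after rescaling, against 7.32% higher and 9.75% lower among all features. The median of the 24 genes was 0.40, against 0.48 for all features. The 4 were Gab2, a docking protein (6.01 FPKM with GBP5 and 1.77 FPKM with β-Gal), Nras, a RAS GTPase (64.2 and 26.9 FPKM), Mapk3, which encodes ERK1 (112 and 49.0 FPKM), and Ptpn11, which encodes the phosphatase SHP2 (35.6 and 17.0 FPKM). Of 16 tested feedback inhibitor genes, 4 were higher and none lower, against 19.2% higher and 5.56% lower among all features. After rescaling 2 were higher and none lower, against 7.32% and 9.75% of all features. Their median was 0.50, against 0.48 for all features. Dusp5 and Dusp4, which encode nuclear phosphatases that act on MAP kinases, were 6.85-fold (interval 4.55 to 10.7) and 4.51-fold higher (interval 3.26 to 6.37). Cblb, a ubiquitin ligase, was at 5.06 FPKM in the GBP5 library and 1.37 FPKM in the β-Gal library, and Dusp6, the cytoplasmic ERK phosphatase gene, at 33.0 and 14.0 FPKM. Errfi1, the EGFR inhibitor MIG6, named after its values were seen, was at 436 and 403 FPKM.

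Genes known to be induced downstream of ERK were higher in 3 of 10 tested cases and lower in 1, against 19.2% higher and 5.56% lower among all features. Their median was 0.76, against 0.48 for all features. After rescaling 2 of 9 were higher and 1 lower, against 7.32% and 9.75% of all features. Emp1, a membrane protein gene, was 6.06-fold higher (interval 4.35 to 8.63), Myc was at 18.5 FPKM in the GBP5 library and 5.87 FPKM in the β-Gal library, and Ier3 at 5.91 and 1.97 FPKM. Phlda1 went the other way, at 8.40 and 19.7 FPKM, from 167 and 420 reads. Of the other ERBB genes, Nrg1, a neuregulin that binds ERBB3 and ERBB4, was at 2.93 FPKM in the GBP5 library and 0.336 FPKM in the β-Gal library, and Nrg4, a neuregulin that binds ERBB4, was at 26.1 and 31.8 FPKM. The remaining 5 genes of that list were under 1 FPKM in both libraries.

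Other growth factor genes of liver regeneration were mostly within the size rule. Of 18 tested members, 4 were higher and none lower, against 19.2% and 5.56% of all features. After rescaling 1 was higher and 4 were lower, against 7.32% and 9.75%. Their median before rescaling was 0.20, against 0.48 for all features. Tnfrsf12a, the receptor gene of the cytokine TWEAK, was at 145 FPKM in the GBP5 library and 8.59 FPKM in the β-Gal library, and was the member still higher after rescaling. Inhbb, an activin subunit gene, was 4.36-fold higher (interval 3.38 to 5.70). Tgfb1 and Tgfbr2, a ligand and a receptor gene of the TGF-beta pathway, which restrains hepatocyte growth, were 2.08-fold (interval 1.86 to 2.33) and 2.14-fold higher. Mst1, which encodes the HGF-like ligand of RON and was named after its values were seen, was at 90.1 and 103 FPKM.

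**Figure D4:**
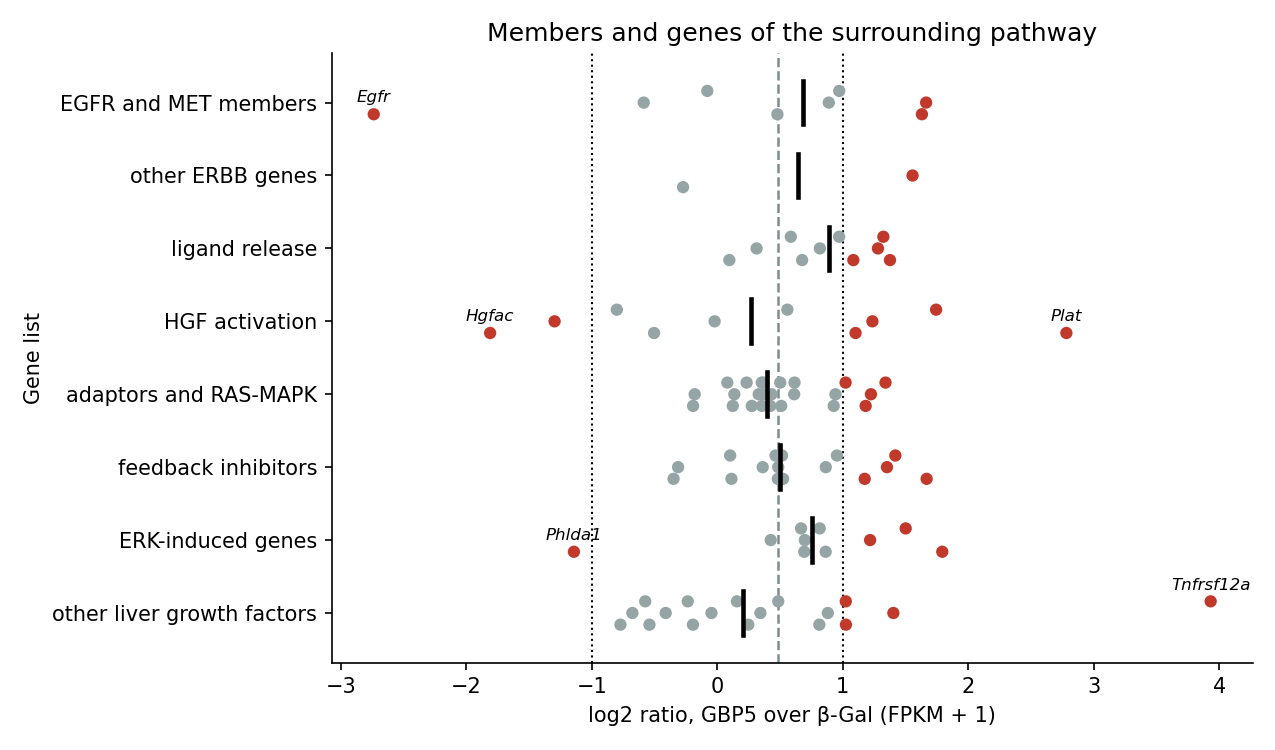
Log2 ratio of GBP5 over β-Gal (FPKM + 1) for each tested gene of the EGFR and MET set and of the surrounding lists, with genes past the size rule in red, list medians as black bars, the median of all features as a dashed line and the size rule as dotted lines. Egfr (-2.74) is the lowest point shown, and Tnfrsf12a (3.93) and Plat (2.78) are the highest.

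Markers of other cells that can make these ligands or receptors were summed as well. T and NK cell markers summed to 97.3 FPKM in the GBP5 library and 31.3 FPKM in the β-Gal library, led by Gzmb (44.7 and 10.5 FPKM) and Nkg7 (23.4 and 10.4 FPKM). Of these markers 7 of 8 were numerically higher, against 77.5% of all features, and Klrb1c and Foxp3 stayed under the filter. Of the 6 tested, 5 were higher by the size rule, against 19.2% of all features. After rescaling 3 were higher, against 7.32%. Mast cell and ILC2 markers, cells known for amphiregulin, summed to 6.58 and 4.81 FPKM, of which Kit alone held 4.19 and 3.53 FPKM, and Gata3 held 1.78 and 0.653 FPKM. Of these 6 markers, 4 were numerically higher with GBP5 and 2 were lower, against 77.5% higher among all features. The lower ones were Cpa3 (0.189 FPKM with GBP5 and 0.412 FPKM with β-Gal) and Fcer1a (0.0637 and 0.179 FPKM). Mcpt4 was at 0.0587 FPKM in the GBP5 library and listed at 0 in the β-Gal library. Cpa3, Fcer1a, Mcpt4 and Il1rl1 (0.298 FPKM with GBP5 and 0.0372 FPKM with β-Gal) stayed under the filter in both libraries. Gata3 passed it through the GBP5 library alone. The ratio of Kit was 1.19, below the median ratio of 1.45. Neither of the 2 tested markers, Kit and Gata3, passed the size rule. Neutrophil markers summed to 201 FPKM in the GBP5 library and 1933 FPKM in the β-Gal library, led by S100a8 and S100a9. Cholangiocyte markers summed to 62.3 and 74.7 FPKM, led by Spp1, with 2 of 7 numerically higher, against 77.5% of all features. Of the 6 tested, 1 was lower by the size rule, against 5.56% of all features. Mesothelial markers summed to 0.765 and 1.43 FPKM, and none of them reached 1 FPKM. Among them 1 was numerically higher, Lrrn4 (0.595 FPKM with GBP5 and 0.0877 FPKM with β-Gal), and 3 were lower. The part of these cells in the levels of Areg, Tgfa and Btc was not tested.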

How the data were processed

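The authors deposited FPKM per gene for 1 GBP5 and 1 β-Gal liver library. The submitters' processing notes name TopHat2, HTSeq 0.6.1 and GRCm38. Which annotation release, strand setting and FPKM program were applied was not given in the sources used here. Since FPKM is relative to each library's total, very abundant genes shift all others. Symbols and positions came from GENCODE M21 (GRCm38) for 46488 of 47442 features, and 1 of 183 listed symbols had no match, and a further listed gene is not reported here.

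FPKM times the rounded mean isoform length gave multiples of a single step. Within 0.02 reads, 82.8% of GBP5 values and 80.9% of β-Gal values under 50 reads were whole (74.3% and 73.5% at any depth). Read numbers, and exact 95% intervals of the ratio by Clopper-Pearson, are given only where both values were whole, as for 9 of the 10 genes. PCR can copy a molecule into several reads, so intervals cover counting error only.

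The log2 ratio used a pseudocount of 1 FPKM and a filter of 1 FPKM in at least 1 library, and values from 1 upward or from -1 downward passed the size rule. Folds of single genes are plain FPKM ratios. No test was possible. Of each list the 4 genes with the largest absolute log2 ratio were named, with all past the size rule where these were 6 or fewer. The genes and lists were chosen with earlier results of these data known. The procedure was tested on simulated reads, with Python 3.11.15, numpy 2.4.6, pandas 2.3.3 and scipy 1.17.1. Alternatives changed the pseudocount, the filter, the scaling and the biotypes counted.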

Additional observations from a re-analysis of the deposited data

How the results depend on the processing

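No paired analysis was possible because each group has 1 library, and for the same reason no library could be left out. Egfr stayed lower and Tgfa higher by the size rule under all 8 alternatives that change the pseudocount, filter, scaling or biotypes, with log2 ratios of -3.25 to -2.57 and 1.15 to 1.78. Btc did so under 7 of 8 (0.84 with a pseudocount of 5 FPKM), and Hgf passed under 2 (1.11 with 0.1 FPKM, 1.06 with equal sums). These genes are protein-coding and above 5 FPKM in at least 1 library, so the filter and biotype alternatives could not change their results. Only the pseudocount and scaling alternatives could. With a pseudocount of 0.1 FPKM, and with equal sums (TPM), 4 of the 10 genes were higher. Features called higher also rose, from 2605 to 3606 with 0.1 FPKM and to 3274 with equal sums. With 5 FPKM, 1101 features were higher and 435 lower, as were 1 of the 10 genes, and of the lists 0 other ERBB, 1 ligand release, 1 HGF activation, 2 adaptor, 0 feedback, 1 ERK-induced and 1 growth factor genes were higher and 0 ERK-induced genes lower. A filter of 5 FPKM left 0 other ERBB and 2 feedback genes higher, and 2063 of all features. After rescaling by the median ratio, 958 features were higher and 1276 lower, 2 of the 10 genes were lower (Egfr and Erbb3), 0 ligand release, 2 HGF activation, 0 adaptor, 2 feedback and 1 growth factor genes were higher, and 4 HGF activation and 4 growth factor genes were lower. Equal sums without the 50 most abundant genes left 2 growth factor genes higher, and 1922 of all features. Depth limits Ereg, Egf and Areg, whose β-Gal values rest on 3, 9 and 3 reads.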
